A study of Rattus norvegicus with 6 samples.

Results

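Solute carriers are the membrane proteins that move amino acids, sugars, ions, metals, nucleosides and vitamins across cell and organelle membranes. They were followed here in left ventricles of 3 normal and 3 diabetic rats, with 1 single-colour Affymetrix array per heart and total RNA as the material. The members are all genes whose array symbol starts with Slc, apart from the mitochondrial Slc25 family and 8 carriers of glucose, lactate, fatty acids, carnitine, creatine and calcium (Slc2a1, Slc2a4, Slc16a1, Slc16a3, Slc27a1, Slc22a5, Slc6a8 and Slc8a1). A gene entered if 1 of its probe sets had a mean signal over all 6 arrays above the 40th percentile of the array, which lay at 117.6 intensity units, and its brightest probe set stands for it. This gave 87 genes out of 202 such genes on the array, measured among 9518 probe sets that passed the same filter. Within this rule only the mean over all arrays and the symbol chose the members, not the difference between groups. The rule itself, with the genes it leaves out, was set with earlier results of these data known. The left-out carriers are described further below. The remaining 115 genes stayed below that level. For 5 members (Slc12a3, Slc26a1, Slc22a8, Slc2a3 and Slc14a2) the mean of 1 group lay below the filter, so they entered through the other group. The labels say neither how the diabetes arose nor how long it had lasted, and give no strain, sex, age or feeding state for either group. No agent or allele is named that both groups would share.

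The members just inside the filter were Slc2a3 at a mean signal of 118.2, Slc14a2 at 123.3 and Slc30a1 at 123.5. Just outside it were Slc38a5 at 116.5, Slco1a4 at 110.9 and Slc7a7 at 106.5. Signals of different probe sets cannot be ranked as amounts of RNA, since each probe set binds with its own strength. Slc4a1ap and Slc7a6os met the rule by their symbols only, because the first is named for a partner protein of the anion exchanger Slc4a1 and the second for lying opposite Slc7a6, and neither is a carrier.

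As background, carriers fall into families that share a fold and often a type of cargo. In the heart muscle cell they set the supply of amino acids for protein synthesis, keep internal pH and chloride in range during contraction, and control iron, zinc, copper and magnesium. Some work as pairs: the heavy chain Slc3a2, also called CD98, carries no cargo itself but brings light chains of the Slc7 family to the cell surface, where the pair exchanges amino acids.

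The 12 cardiomyocyte markers on the array summed to signals of 287448 to 359040 on normal and 288958 to 388126 on diabetic arrays, so the RNA carried the markers of its labelled tissue, and 2 of them rose while 1 fell. The summed atrial markers stood higher in diabetes, at 6025 to 7288 against 24095 to 33845. Most of that gap was Nppa, also counted among the cardiomyocyte markers, with means of 3671 in normal and 25244 in diabetic hearts. Of 7 tested atrial genes 2 rose, Nppa and Dkk3. Sln, Myl7, Myl4 and Kcna5 overlapped between the groups, and Gja5 was lower in every diabetic heart without a call. The summed epithelial and mesothelial markers stood lower, at 1000 to 1058 against 523 to 821, with 1 of 2 tested genes fallen. That gene was Fxyd3, with means of 454 in normal and 103 in diabetic hearts. The other, Wt1, overlapped between the groups (306 ± 43.1 and 264.5 ± 40.1). The summed fibroblast markers were lower in diabetes, at 50372 to 58196 against 32060 to 36752, with 4 of 10 tested genes fallen. These 4 were the matrix genes Col1a1, Col1a2, Col3a1 and Lum, and Mgp was lower in every diabetic heart without a call. Dcn (log2 -0.01 ± 0.15), Fbln1, Pdgfra, Tcf21 and Dpt overlapped between the groups. Macrophage and leukocyte markers overlapped between the groups, at sums of 9950 to 11752 and 9277 to 12194. Endothelial markers also overlapped (10528 to 12300 against 10781 to 11832), with 1 of 9 tested genes fallen. Pairs of arrays correlated at 0.965 to 0.972 within and 0.935 to 0.958 between groups. Of the array's own reference probe sets, Gapdh was at -0.13 to -0.04 and beta-actin at -1.01 to -0.76 on the log2 scale, diabetic minus normal. The number of hearts, 3 per group, limits the precision of all values. In whole tissue of this kind, fewer cells of a type and less RNA per cell cannot be told apart.

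Of the 87 genes, 2 rose in diabetes and none fell, both rises being in amino acid transport. A rise or fall here means a Benjamini-Hochberg adjusted p under 0.05 in limma's test over all 9518 probe sets. The share called was 2.57% over all tested probe sets (1.38% higher and 1.2% lower), and 2.3% of the carriers, so the count was close to the background. Among all carriers 44 differences were above 0 and 43 below, with a median of 0.00 on the log2 scale against -0.01 over all probe sets. At an unadjusted limma p under 0.05 stood 18 carriers (20.7%), against 19.9% of all probe sets. The groups did not overlap for 19 carriers, 10 higher and 9 lower in diabetes, against 25.8% of all probe sets (12.1% higher and 13.7% lower). These 19 make up 21.8% of the carriers. The 95% interval of the difference lay within 1 log2 unit of 0 for 75 of the 87 genes, intervals being taken gene by gene. The differences ran from -0.51 for Slc39a13 to 1.92 for Slc12a3, which entered through its diabetic hearts. All log2 differences are of log2(signal + 16), diabetic minus normal, which understates the change of dim genes.

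**Figure D1:**
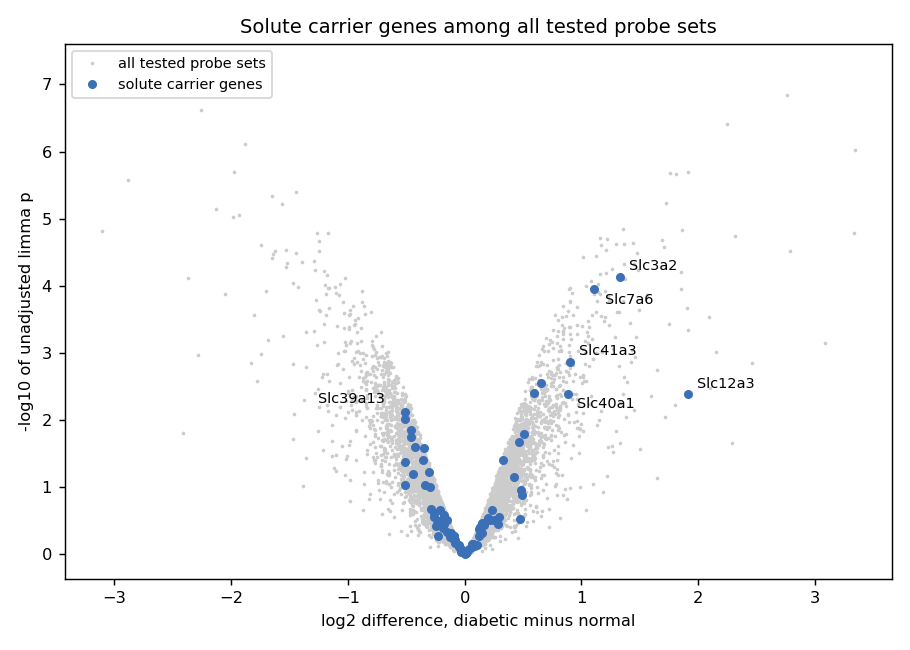
Each point is a probe set, with the log2 difference (diabetic minus normal) on the horizontal axis and -log10 of the unadjusted limma p on the vertical axis. Grey points are all 9518 tested probe sets and blue points the 87 solute carrier genes, of which Slc3a2 and Slc7a6 lie highest.

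Slc3a2, the heavy chain of the paired amino acid exchangers, had the clearest difference. Its signal was 1159, 963 and 793 in normal 1, 2 and 3, and 2821.5, 2537.5 and 2031 in diabetic 1, 2 and 3. The lowest diabetic heart thus lay well above the highest normal heart. The means were 971 ± 183 and 2463 ± 400.5 (SD, n = 3 per group), a ratio of 2.54, and the log2 difference was 1.33 ± 0.19 (SE, limma adjusted p = 0.0115). It stayed between 1.20 and 1.47 with each array left out and passed in all 6 of those fits.

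The light chain Slc7a6, which pairs with Slc3a2 and exchanges cationic for neutral amino acids, rose with it. Its signal was 376, 298 and 300.4 in normal and 821, 614 and 721.5 in diabetic hearts. No diabetic value came near the normal range. The ratio of means was 2.21 and the log2 difference 1.11 ± 0.17 (limma adjusted p = 0.0136). The call was narrowly lost without normal 2 (adjusted p = 0.052) and without normal 3 (0.0557), the difference being 1.01 to 1.21 over the arrays left out. When dim probe sets were kept in the fit, neither gene passed, with adjusted p = 0.0837 for Slc3a2 and 0.0904 for Slc7a6.

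The upstream sequence of Slc3a2 is shown because it is the carrier with the smallest p. RefSeq gives this gene a pair of start sites in build GRCr8, and the 250 bases before each follow, 5′ to 3′ on the gene's strand, with matches to a GC box (GGGCGG or its reverse complement) in capitals.
Slc3a2, window 1, chr1:215039671-215039920, minus strand: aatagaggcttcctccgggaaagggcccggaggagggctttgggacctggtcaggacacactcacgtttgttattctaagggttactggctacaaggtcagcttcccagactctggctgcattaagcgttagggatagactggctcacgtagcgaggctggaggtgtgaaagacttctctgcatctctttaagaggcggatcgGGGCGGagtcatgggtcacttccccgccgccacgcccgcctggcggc
Slc3a2, window 2, chr1:215048065-215048314, minus strand: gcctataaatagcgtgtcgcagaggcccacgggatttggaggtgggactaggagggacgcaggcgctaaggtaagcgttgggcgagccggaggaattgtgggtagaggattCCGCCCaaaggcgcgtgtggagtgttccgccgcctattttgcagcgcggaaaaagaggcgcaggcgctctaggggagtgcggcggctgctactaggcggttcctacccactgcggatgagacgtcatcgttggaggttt
Each window held 1 GC box, a motif found on either strand in 30.5% of 33469 such windows of the whole table and in 46 of 77 windows of the carriers (71 of the 87 genes matched by gene number). The other motifs searched on both strands were the amino acid response element TTGCATCA, the cAMP response element TGACGTCA, the CCAAT box and the E-box CACGTG. None of these was in either Slc3a2 window, and none of the 5 motifs was in the 1 window listed for Slc7a6. Among carriers the amino acid response element was found only upstream of Slc38a1, where 0.693% of all windows hold it. A match in these letters is a description of the window and no evidence of a bound factor.

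Slc7a8, Slc7a5, Slc7a7 and Slc7a10, other light chains known to pair with Slc3a2, were below the signal filter and are described with that limit. Light chains without a probe set named for them alone are not covered. Below the filter the groups did not overlap for 10.8% of 6348 probe sets (6.29% higher and 4.51% lower). Slc7a8, which carries neutral amino acids, was at 22.7, 44.2 and 25.1 in normal and 230.0, 109 and 114 in diabetic hearts. Each diabetic value was above each normal one, and diabetic 1 was highest, but in the fit without the filter the adjusted p was 0.105 (log2 difference 1.80 ± 0.32). Slc7a5, the light chain best known for leucine uptake, was at 44.8, 51.3 and 72.5 in normal and 89.5, 70.5 and 81.4 in diabetic hearts, which overlap (adjusted p = 0.428 in that fit). Slc7a7 (adjusted p = 0.893) and Slc7a10 (0.799) overlapped too.

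**Figure D2:**
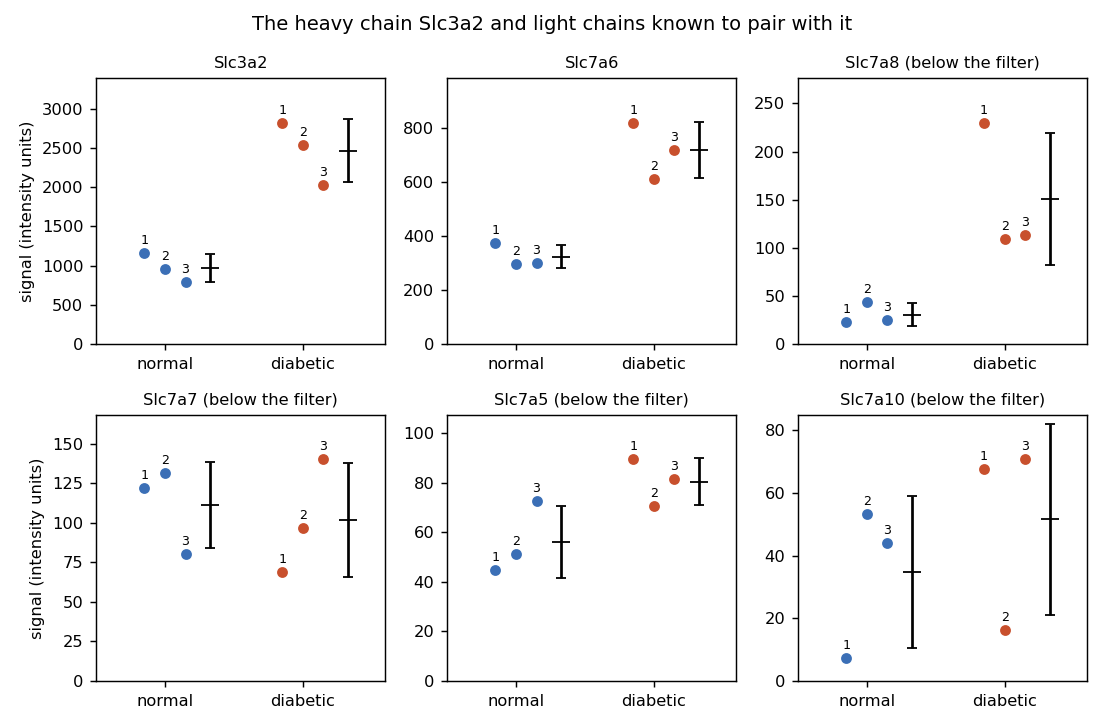
Signal in intensity units (vertical axis, from 0) for Slc3a2 and 5 of its light chains, by group on the horizontal axis. Numbered points are single hearts and black bars mean and SD (n = 3), and the groups are apart for Slc3a2, Slc7a6 and Slc7a8.

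The other 12 amino acid and peptide carriers did not pass. Slc38a2, a sodium-coupled carrier of small neutral amino acids, was at 2646, 1539 and 1731 in normal and 1358, 1183.5 and 1497 in diabetic hearts. The groups were just apart, with normal 1 far above the rest (log2 -0.51 ± 0.22, adjusted p = 0.23, and -0.28 without normal 1). Its relative Slc38a3, a glutamine carrier, was at -0.51 ± 0.27 with overlapping groups (adjusted p = 0.333, and -0.25 without normal 2). Slc38a1, a further member of that family, was at 0.16 ± 0.17. Slc7a1, the general carrier for arginine and lysine, was at 259 ± 66.0 in normal and 266 ± 38.5 in diabetic hearts, and its 95% interval ran from -0.40 to 0.52. Slc3a1, the other heavy chain, was at 0.08 ± 0.20. Slc6a6, which supplies the heart's large taurine pool, was at 752 ± 202 and 792.5 ± 191, with an interval of -0.47 to 0.63. Slc6a9, the glycine carrier, was at 0.24 ± 0.18. Slc7a6os, the gene opposite Slc7a6, was at -0.26 ± 0.21 with overlapping groups. The remaining 5, Slc38a6, Slc38a10, Slc15a4, Slc6a20a and Slc66a2, lay between -0.27 and 0.01, all with overlap.

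A list of 20 genes of the response to amino acid shortage, a program known to raise several of these carriers, had 17 on the array and 9 above the filter. Of these 9, 2 rose and 1 fell, where 2.57% of all tested probe sets were called. The list was chosen with earlier results of these data known, so these counts are a description and no test of the program. Eif4ebp1, an inhibitor of translation initiation, rose from 993 ± 165.5 to 3498 ± 240.4 (log2 1.81 ± 0.17, adjusted p = 0.00208). Nupr1, a stress-induced chromatin protein, rose from 161.5 ± 17.5 to 448 ± 93.1 (log2 1.37 ± 0.18, adjusted p = 0.00896). Aldh18a1, the first enzyme of proline synthesis, fell from 198 ± 26.5 to 97.3 ± 12 (log2 -0.92 ± 0.16, adjusted p = 0.0225). Atf4, the transcription factor at the head of that program, was at 0.16 ± 0.13 (adjusted p = 0.567), with every diabetic heart higher. Vldlr was lower in every diabetic heart (log2 -0.37 ± 0.14, limma adjusted p = 0.178). Cebpb, Ddit3, Chac1 and Shmt2 overlapped between the groups. The list's median was 0.17, against -0.01 over all probe sets.

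Of 19 metal and heme carriers none passed. Their median difference was -0.09, and 5 had groups that did not overlap, 2 higher and 3 lower, as had 25.8% of all tested probe sets. Slc41a3, of the magnesium carrier family, came nearest, at 2951.5, 2784 and 1893.5 in normal and 4463, 4359 and 5254 in diabetic hearts. Every diabetic heart was above every normal one, and normal 3 was the lowest. The ratio of means was 1.85 and the log2 difference 0.90 ± 0.20 (adjusted p = 0.0512). It passed under 6 of 11 other processing settings, at adjusted p = 0.0108 with an intensity trend and 0.0478 with the filter set on mean log2 signal, and in none of the 6 fits with an array left out. Its relative Slc41a1, a magnesium carrier of the cell membrane, was at 0.29 ± 0.25 with overlapping groups, and at 0.05 without normal 1.

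Slc40a1, or ferroportin, the only known exporter of iron from cells, was higher in all diabetic hearts at both of its probe sets. The brighter gave 627, 496 and 322 in normal and 836, 823 and 969 in diabetic hearts, a ratio of 1.82 (log2 0.89 ± 0.23, adjusted p = 0.0815). The other gave 478, 517 and 362 against 757.5, 666 and 1080.5 (log2 0.85 ± 0.21, adjusted p = 0.0771). Normal 3 was lowest at both, and the brighter difference was 0.63 to 1.10 with each array left out, with no call. It passed with the filter at the 60th percentile (adjusted p = 0.0431) and with an intensity trend (0.0326). The summed macrophage markers, a cell type known to hold much ferroportin, overlapped between the groups as given above, and 0 of 8 passed. Of these 8 markers 7 were above 0, with a median of 0.15 over the list, and Cd74, the brightest, was lower at -0.36 ± 0.14. Their part in the Slc40a1 values was not tested. Hamp, the hormone that removes ferroportin from the membrane, was at 275 ± 57.3 and 545 ± 149.8 (log2 0.93 ± 0.22, adjusted p = 0.0675), also with groups apart. Tfrc, which takes iron in, was at 592, 388 and 4501 in normal and 381, 411 and 354 in diabetic hearts, so the gap between the group means rested on normal 3 (adjusted p = 0.341). None of 15 tested genes of metal storage and handling passed, and their median was 0.24.

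The Slc39 zinc importers all had differences below 0, from -0.51 to -0.03, though none of the 5 passed. This family was singled out after its values were seen. Over all tested probe sets 13.7% were lower in diabetes without overlap. Slc39a13, which releases zinc from internal stores, was at 656, 720.2 and 558.5 in normal and 461, 429 and 445 in diabetic hearts (log2 -0.51 ± 0.15, adjusted p = 0.104). Slc39a10 was at 229, 173 and 205 against 124, 148 and 138 (log2 -0.51 ± 0.16, adjusted p = 0.116). Slc39a14, which also takes up iron and manganese, was at 586.5, 649 and 793 against 485, 509.9 and 458 (log2 -0.46 ± 0.16, adjusted p = 0.154). For these 3 genes the groups did not overlap, while Slc39a1 was at -0.13 ± 0.20 and Slc39a7 at -0.03 ± 0.15 with overlap, both above 0 without diabetic 1 (0.09 and 0.02). Summed fibroblast markers were lower in the same hearts, though not every marker followed, as given above. Their part in these values was not tested. The 6 zinc exporters of the Slc30 family lay between -0.23 and 0.07, all with overlapping groups, Slc30a1 of the cell membrane among them (124 ± 33.8 and 123 ± 43.0).

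The groups overlapped for all remaining metal carriers. The copper carriers Slc31a1 and Slc31a2 were at 0.12 ± 0.15 and 0.49 ± 0.27, the latter with diabetic 2 highest at 292.0 and at 0.22 without it. Slc11a2, which brings iron in at the endosome and the surface, was at -0.19 ± 0.18. Slc48a1, a heme carrier, was at 0.00 ± 0.20, with an interval of -0.44 to 0.45. Slc49a4, grouped here by family, was at -0.18 ± 0.15.

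**Figure D3:**
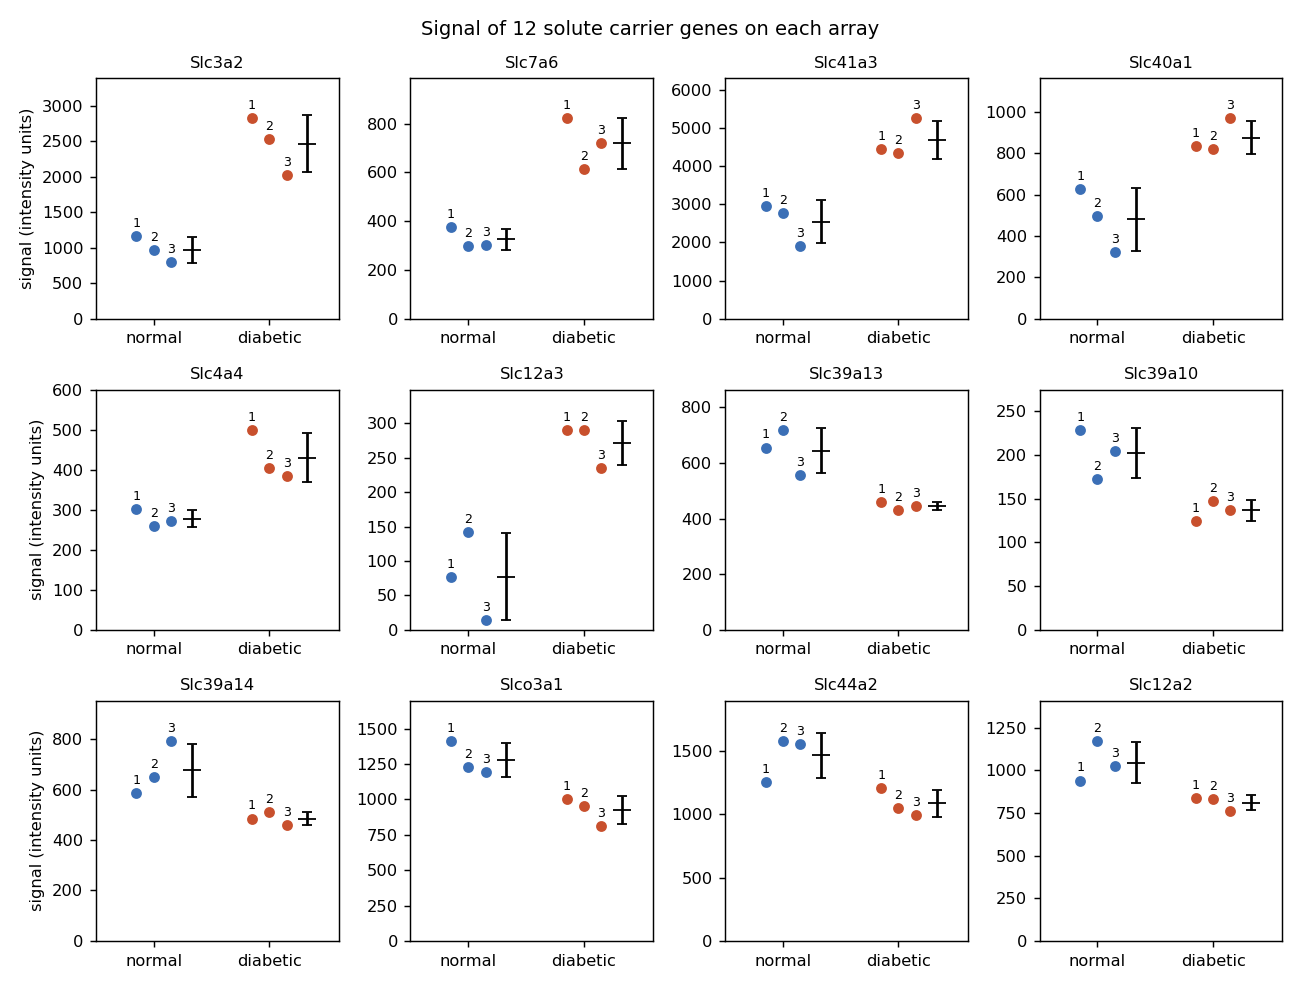
Signal in intensity units (vertical axis, from 0) of 12 carriers whose groups do not overlap, by group on the horizontal axis. Numbered points are single hearts and black bars mean and SD (n = 3), the first 6 genes being higher and the last 6 lower in diabetes.

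Ion carriers of the Slc4, Slc12 and Slc26 families had no call among 10, with 2 genes higher and 1 lower without overlap. Over all tested probe sets 25.8% had groups apart. Slc12a3, known as the thiazide-sensitive sodium chloride carrier of the kidney tubule, had the largest difference of all carriers but at dim signals. Its normal mean of 77.3 lay below the filter, so it became a member only through the diabetic hearts, where it is high. It was at 76.2, 141.5 and 14.2 in normal and 291, 289.9 and 235 in diabetic hearts. Normal 3 was near the bottom of the scale, and the diabetic hearts lay close together. The log2 difference was 1.92 ± 0.50 (adjusted p = 0.0815), and it was 1.25 to 2.44 with each array left out. It passed without normal 2 (adjusted p = 0.0397), with an intensity trend (0.0395) and with a pseudocount of 64 (0.0299).

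Slc4a4, the electrogenic sodium bicarbonate carrier that raises internal pH, was at 301, 260.3 and 272 in normal and 500.5, 405.5 and 385.5 in diabetic hearts. All diabetic values exceeded the normal ones (log2 0.60 ± 0.15, adjusted p = 0.0811), and with the filter at the 60th percentile it passed (0.0404). Its dimmer probe set did not follow, at 0.02 ± 0.21. Slc12a2, which brings sodium, potassium and chloride into the cell, was at 940.1, 1173 and 1023 against 840.2, 833.5 and 759 (log2 -0.36 ± 0.15, adjusted p = 0.22). Its groups were apart by a small margin. The potassium chloride carriers Slc12a4 and Slc12a7 were at -0.15 ± 0.20 and -0.08 ± 0.19, and the sodium bicarbonate carrier Slc4a7 at 0.01 ± 0.21.

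The chloride bicarbonate exchangers, which acidify the cell, did not pass. Slc4a3, the cardiac form, was at 1393 ± 49.8 in normal and 1309 ± 92.9 in diabetic hearts, with an interval of -0.40 to 0.22. Slc4a2 was at -0.18 ± 0.18 with overlap. Slc4a1, the band 3 protein of red cells, was at -0.34 ± 0.18 (adjusted p = 0.335). The erythroid markers, Slc4a1 among them, had summed signals that overlapped, 19627 to 25970 and 16185 to 25152, with 0 of 3 tested genes called, and Rhag was under 16 on every array. Slc26a1, a sulfate and oxalate exchanger, was at 0.43 ± 0.21. Slc4a1ap was at -0.45 ± 0.21 with overlap.

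No gene passed among 17 tested regulators and partners of ion carriers, such as the Wnk kinases and carbonic anhydrases, and their median was -0.10. The groups were apart for 5 of these genes, 3 higher and 2 lower in diabetes, against 25.8% of all tested probe sets. Stk39, a kinase that activates Slc12a2 and Slc12a3, was at 543 ± 48.4 in normal and 761 ± 128.9 in diabetic hearts (log2 0.47 ± 0.17, adjusted p = 0.163), with groups apart. Car4, a carbonic anhydrase of the outer membrane face, was at 1017 ± 93.7 and 550.3 ± 173 (log2 -0.91 ± 0.21, adjusted p = 0.0622), also apart. Car8 was lower in every diabetic heart too (log2 -0.84 ± 0.19, limma adjusted p = 0.0603). Wnk2 (log2 0.23 ± 0.13) and Nedd4l (0.35 ± 0.18) were higher in every diabetic heart.

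Exchange of protons and calcium was represented by 3 genes, none called. Slc8b1, the sodium calcium exchanger of the mitochondrial inner membrane, was at 43.0, 206 and 164 in normal and 193, 161 and 155.5 in diabetic hearts. Its difference of 0.47 ± 0.43 rested on normal 1, without which it was -0.11. Slc24a3, which exchanges calcium against sodium and potassium, was at -0.23 ± 0.35, or -0.63 to -0.02 with each array left out, and Slc9a8, a proton exchanger of the Golgi, at -0.09 ± 0.14.

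Sugar and polyol carriers, without the main glucose carriers Slc2a1 and Slc2a4, had 6 of 8 differences above 0 and a median of 0.22, with none called. Slc45a4 was at 142.1, 203.5 and 141.8 in normal and 224, 232.5 and 228 in diabetic hearts. The groups were apart, and the diabetic hearts were nearly level (log2 0.47 ± 0.17, adjusted p = 0.166). Slc2a8, a glucose carrier of internal membranes, was at 0.50 ± 0.30 with overlap and at 0.23 without diabetic 2, and Slc2a3, the neuronal type glucose carrier, at -0.05 ± 0.17. Slc2a13, a proton-coupled inositol carrier, was at 0.25 ± 0.23 at its brighter and 0.51 ± 0.20 at its dimmer probe set. The other 4, Slc50a1, Slc45a3 and the sugar phosphate carriers Slc37a1 and Slc37a4, lay between -0.09 and 0.28 with overlap.

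Carriers of nucleotides and nucleotide sugars into the Golgi and endoplasmic reticulum, the Slc35 family, had no call among 10 and a median of -0.14. Slc35e4, whose cargo is not known, was at 201, 155 and 150.3 in normal and 284, 285 and 249 in diabetic hearts (log2 0.65 ± 0.16, adjusted p = 0.0691). No values were shared between the groups. Slc35b1, which brings ATP into the endoplasmic reticulum, was at 1030, 966 and 1036 against 768, 788.5 and 808 (log2 -0.35 ± 0.13, adjusted p = 0.185). Its dimmer probe set was at 0.11 ± 0.19, so the lower signal was seen at 1 of 2 probe sets. Slc35b4 and Slc35b2 were at -0.30 ± 0.16 and -0.29 ± 0.21. The other 6 lay between -0.21 for Slc35a4 and 0.17 for Slc35e1, with overlap in each.

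Of 6 carriers of vitamins, choline and lipid precursors none passed, and 3 had groups apart, as had 25.8% of all tested probe sets. Slc33a1, which brings acetyl-CoA into the endoplasmic reticulum, was at 297, 421.5 and 430.4 in normal and 519, 552 and 567 in diabetic hearts (log2 0.51 ± 0.17, adjusted p = 0.148). Slc44a2 and Slc44a1, choline carriers, were lower. Slc44a2 was at 1258, 1581 and 1557.5 against 1208, 1052 and 996 (log2 -0.42 ± 0.16, adjusted p = 0.179). Slc44a1 had 3 tested probe sets, at -0.31 ± 0.14 for the brightest (adjusted p = 0.273), -0.10 ± 0.18 and -0.70 ± 0.15 (adjusted p = 0.052), so they shared a sign but not a size. Slc5a6, which carries biotin and pantothenate, was at -0.18 ± 0.21, the vitamin C carrier Slc23a2 at 0.03 ± 0.15, and Slc27a4, of the fatty acid carrier family, at 0.02 ± 0.17.

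Nucleoside carriers had 3 members, all above 0 and none called. Slc28a2, a sodium-coupled carrier of purine nucleosides, was at 584, 641 and 626 in normal and 816, 781 and 738 in diabetic hearts. Its groups were apart (log2 0.33 ± 0.13, adjusted p = 0.22). Slc29a1, the main equilibrative adenosine carrier, was at 701 ± 41.8 and 782 ± 93.3, with an interval of -0.19 to 0.49, and Slc29a2 at 0.06 ± 0.18.

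Carriers of organic ions and hormones had 1 gene of 8 with groups apart, against 25.8% of all tested probe sets. Slco3a1, a carrier of prostaglandins and thyroid hormone, was at 1414, 1230 and 1192 in normal and 1004, 956 and 813 in diabetic hearts (log2 -0.46 ± 0.15, adjusted p = 0.139). Its other probe set also gave lower values in every diabetic heart, at -0.29 ± 0.14. Slc22a3, which removes catecholamines from the extracellular space, was at 0.12 ± 0.19. Slc22a8, an organic anion carrier, was at 0.22 ± 0.20 and Slc10a3 at -0.24 ± 0.24, and the other 4 lay between -0.05 and 0.07. The phosphate carriers Slc20a1 and Slc20a2 were at 0.02 ± 0.16 and 0.15 ± 0.20, Slc16a6 of the monocarboxylate family at 0.13 ± 0.15, and the urea carrier Slc14a2 at -0.18 ± 0.16.

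**Figure D4:**
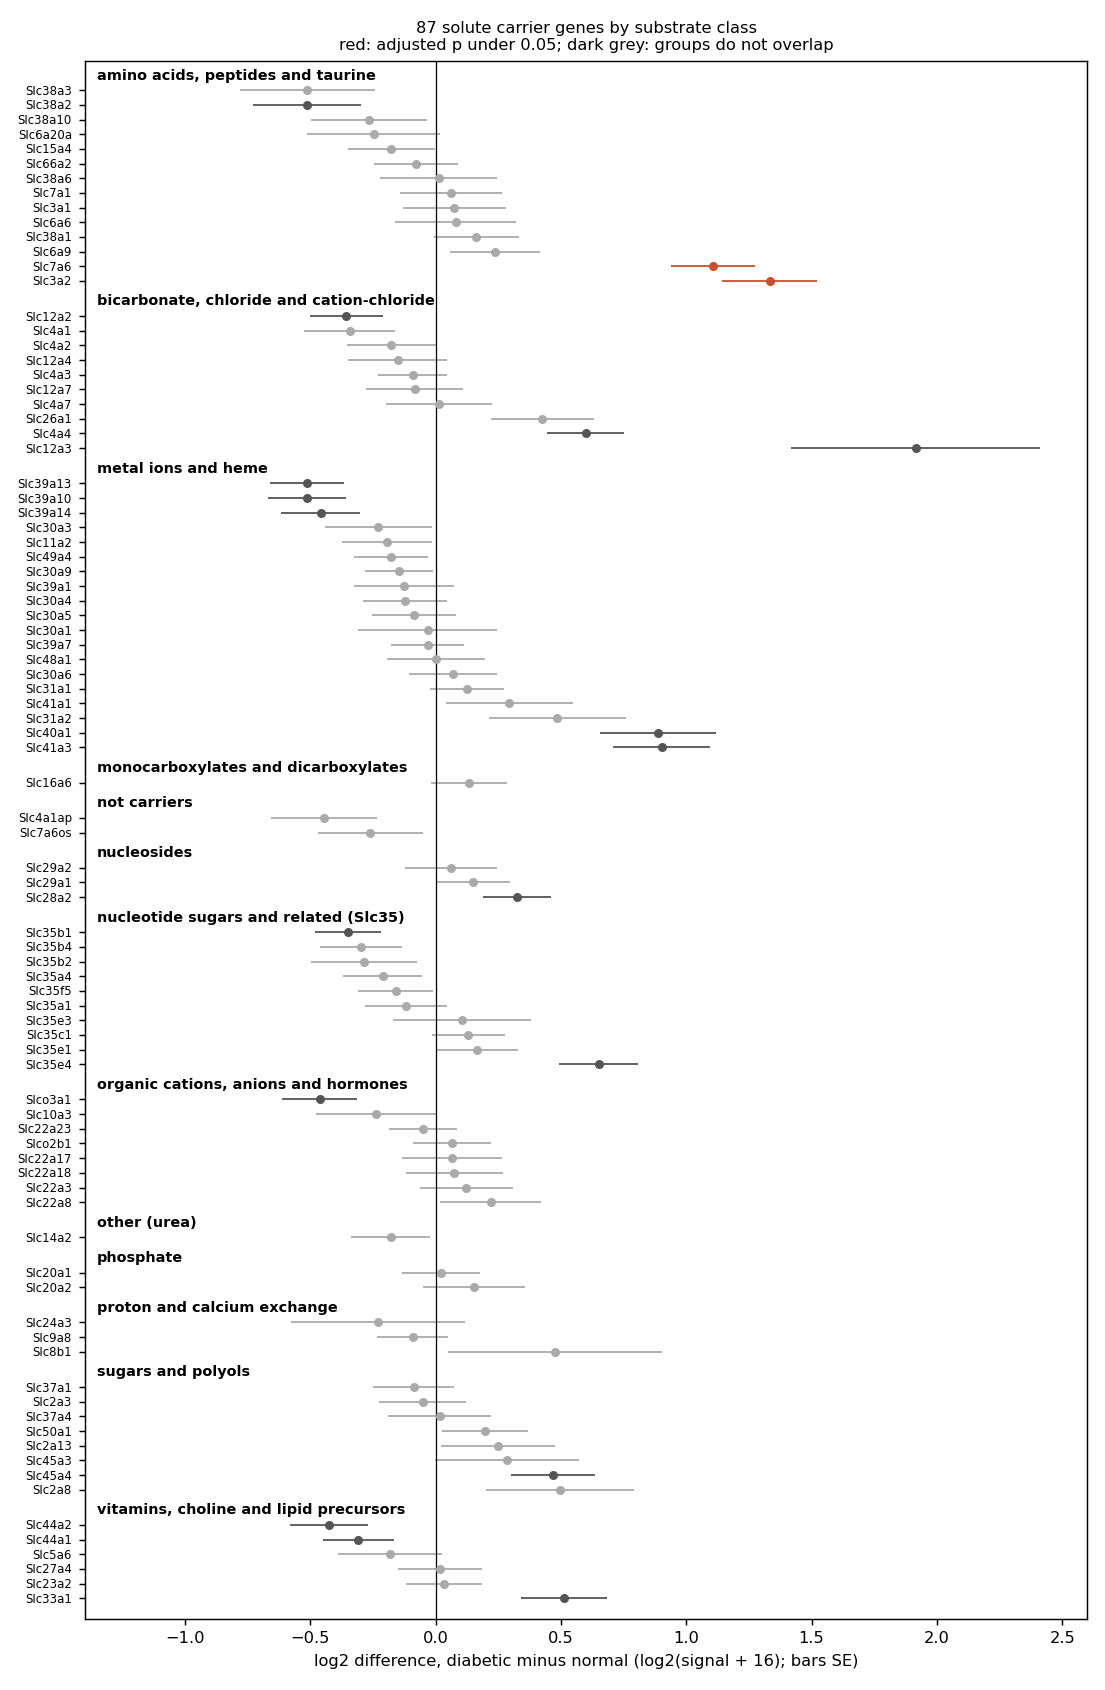
The log2 difference (diabetic minus normal, horizontal axis) with its SE for each of the 87 genes, grouped by cargo on the vertical axis. Red marks the 2 called genes, dark grey the other 17 whose groups do not overlap and light grey the rest.

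Divided by membrane with a fixed list, 25 genes belong to families or genes placed mainly in internal membranes. They had a median of -0.09, no call and 4 without overlap. The list is not complete. It leaves out, for example, Slc8b1 of the mitochondrial inner membrane, which is counted with the other genes. The other genes are therefore not all carriers of the cell surface. The other 62 had a median of 0.03, 2 calls and 15 without overlap. Over all tested probe sets 2.57% were called and 25.8% had groups apart. A test of the difference between these sets was not made, as the sets were described by counts only.

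For 14 genes more than 1 probe set passed the filter, 29 in all. The sign was the same at all of them for 12 genes and differed for Slc35a1 and Slc35b1. Of the dimmer probe sets not given above, those of Slc20a2 (0.29 ± 0.14) and Slc38a1 (0.31 ± 0.19) were higher in every diabetic heart. Those of Slc16a6, Slc31a1, Slc35a1, Slc6a6 and Slco2b1 lay between 0.265 and 0.416, all with overlap. That of Slc4a1 was at -0.42 ± 0.45, also with overlap. No probe set of these 14 genes passed the threshold.

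**Figure D5:**
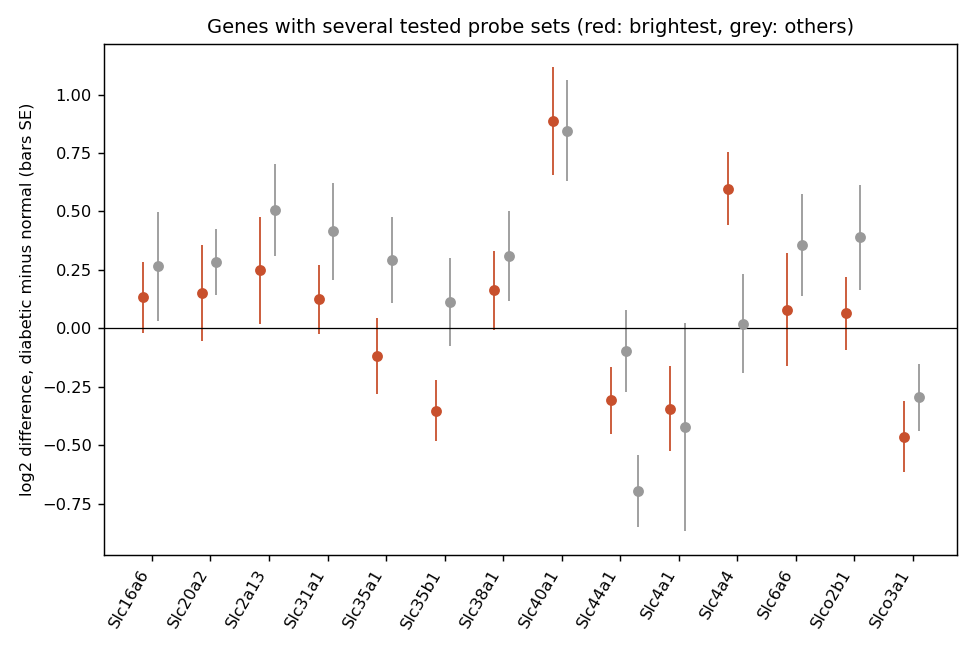
The log2 difference (diabetic minus normal, vertical axis) with its SE at every tested probe set of the 14 genes that have several, by gene on the horizontal axis. Red is the brightest probe set and grey the others, and only Slc35a1 and Slc35b1 have points on both sides of 0.

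Of 32 tested carriers outside the rule, 2 were called: Slc25a33, a mitochondrial pyrimidine nucleotide carrier, was higher (log2 0.84 ± 0.15, adjusted p = 0.0262), and the insulin-responsive glucose carrier Slc2a4 was lower (log2 -1.04 ± 0.19, adjusted p = 0.0272). These calls make up 6.25% of the 32, against 2.57% of all tested probe sets. The groups did not overlap for 13 of the 32 (40.6%), 8 higher and 5 lower, against 25.8% of all tested probe sets. The near-background counts of the 87 members thus do not extend to these left-out carriers.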

How the data were processed

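Each left ventricle gave 1 Affymetrix rat array. The authors deposited 1 table of linear probe set intensity, per the file headers, whose 2% trimmed mean was 500.2 on all arrays. Neither the labels nor the file name the software or steps behind these signals. The signals were used as deposited, as log2(signal + 16), and tested with limma 3.58.1 in R 4.3.3 (lmFit, eBayes) on 9518 non-control probe sets with a mean signal above 117.6, with Benjamini-Hochberg adjustment and a threshold of 0.05. Gene names are those of the platform annotation. They were compared with RefSeq's GRCr8 table, which gave none of the carriers a different symbol. Of 15866 non-control probe sets, 12783 named 1 gene, 312 several and 2771 none, and only those with 1 gene were named. Groups were taken from the sample labels. The members and gene lists were chosen with earlier results of these data known, and Slc4a1ap and Slc7a6os were set apart as not carriers after the files were read. The naming rule took called carriers, up to 4 per class by p, the 12 brightest, the 10 largest rises and 10 largest falls, a panel of carriers known in heart and those next to the filter, and other carriers stand in ranges. Dim carriers are described only as light chains of Slc3a2 or in the closing section. In a simulation of this comparison on 9518 probe sets, with 50 changed at each size, 0% were recovered at a log2 change of 0.5, 50% at 1, 92% at 2 and 96% at 3, and 7 of 126 calls were false.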

Additional observations from a re-analysis of the deposited data

How the results depend on the processing

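The call for Slc3a2 held in 16 of 17 alternatives and that for Slc7a6 in 14, each lost without a signal filter. Carriers called, 2 as reported, numbered 5 with the filter at the 60th percentile and 5 with an intensity trend, 4 with a pseudocount of 64, 0 without a filter, and 1 to 2 with each array left out. Calls over all probe sets, 245 as reported, numbered 429 with the filter at the 60th percentile, 525 with an intensity trend, 386 with a pseudocount of 64, 18 without a filter, 163 with the replicate number as a block, and 96 to 175 with each array left out. Leaving out 1 array turned the sign of 29 of the 87 carriers, none of them called: the range on the log2 scale was -0.157 to 0.076 for Slc66a2, -0.048 to 0.245 for Slc3a1, -0.121 to 0.268 for Slc6a6, -0.122 to 0.231 for Slc7a1, -0.192 to 0.198 for Slc38a6, -0.259 to 0.042 for Slc12a7, -0.156 to 0.165 for Slc4a7, -0.258 to 0.094 for Slc39a1, -0.087 to 0.167 for Slc30a6, -0.092 to 0.045 for Slc39a7, -0.246 to 0.259 for Slc30a1, -0.162 to 0.165 for Slc48a1, -0.077 to 0.226 for Slc29a2, -0.173 to 0.312 for Slc35e3, -0.455 to 0.003 for Slc10a3, -0.045 to 0.290 for Slc22a3, -0.012 to 0.155 for Slco2b1, -0.037 to 0.252 for Slc22a18, -0.103 to 0.003 for Slc22a23, -0.075 to 0.254 for Slc22a17, -0.082 to 0.273 for Slc20a2, -0.069 to 0.145 for Slc20a1, -0.112 to 0.844 for Slc8b1, -0.189 to 0.004 for Slc37a1, -0.156 to 0.060 for Slc2a3, -0.15 to 0.199 for Slc37a4, -0.301 to 0.030 for Slc5a6, -0.042 to 0.112 for Slc23a2 and -0.043 to 0.131 for Slc27a4. The mean over probe sets turned Slc35a1 to 0.087, and no other carrier turned under the settings that keep all arrays. The cause was not tested. With the replicate number as a block the carriers called were again 2, Slc3a2 at an adjusted p of 0.0177 and Slc7a6 at 0.025. Same-numbered arrays correlated in their deviations at 0.082, 0.029 and 0.013, and the other pairs at -0.09 to 0.068. All these values were small, and with 3 arrays per group they cannot settle whether same-numbered samples were paired.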

Other observations

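Carriers below the signal filter included 11 of 115 genes whose groups did not overlap, 5 higher and 6 lower in diabetes, near the 10.8% of all 6348 probe sets below the filter. Slc1a5, a carrier of glutamine and other neutral amino acids, was at 81.3, 125 and 78.6 in normal and 33.6, 24.6 and 15.5 in diabetic hearts. The others lower in all diabetic hearts were Slc15a3, Slc23a1, Slc26a3, Slc38a4 and Slco2a1, and those higher, besides Slc7a8, were Slc5a5, Slc10a1, Slc12a1 and Slc4a10. These were named after their values were seen and carry no call.

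Neither ABC transporters nor aquaporins had a call. Of 14 tested ABC transporters, pumps driven by ATP, 5 differences were above 0 and 9 below, with a median of -0.15. Abcc8, a sulfonylurea receptor of ATP-sensitive potassium channels, was at 417 ± 22.0 in normal and 275 ± 18.4 in diabetic hearts (limma adjusted p = 0.0654), and its relative Abcc9 was at -0.46 on the log2 scale (adjusted p = 0.2). Of 2 tested aquaporins, Aqp7, which passes glycerol, was at 0.51 (adjusted p = 0.195) and the water channel Aqp1 at -0.13 (adjusted p = 0.793).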
